A study of Rattus norvegicus with 18 samples.

Results

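The 10 genes described here are transcripts by which injury of the kidney tubule is commonly recognised, namely Havcr1, Vcam1, Cd44, Sox9, Lcn2, Spp1, Clu, Krt8, Krt18 and Vim. They were chosen by their mouse Ensembl identifiers (10 of the 55335 genes counted), as known injury markers and not by a threshold on their values, with earlier results of these data known. Kidneys of animals in 3 groups of 6 gave 18 libraries of polyadenylated RNA, labelled Rattus norvegicus. Treat animals carried the diabetic nephropathy model and were given TSK, named in the labels only by these letters, by the oral route at 500 mg/kg daily for 4 weeks. DN animals carried the model alone, made by a high-fat diet with STZ (streptozotocin, a toxin of insulin-producing cells). Ctrl animals ate ordinary feed and had the solvent by gavage. The sources used here state no strain, sex or age, and no gavage for DN. The series describes 6 animals per group, and each library has its own label. Total counts per library were 22040987 to 28135824 in Treat, 25505257 to 35275498 in DN and 26312358 to 34140706 in Ctrl.

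A tubular epithelial cell that is damaged loses part of its mature transport programme and switches on genes that are low or silent in the healthy tubule. Some encode surface proteins that bind debris or immune cells, some encode secreted proteins that reach the urine, and others belong to the filament scaffold and to the programme of regrowth after damage. Several are also made outside the tubule, for example Vim by fibroblasts, endothelium and podocytes, Vcam1 by endothelium and Lcn2 by neutrophils. In RNA of whole tissue, a change in the number of cells of a type and a change in RNA per cell cannot be told apart.

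Some control libraries differed from the rest before any marker is considered. Control libraries 1, 2, 3, 5 and 6 held 38313 to 52784 counts of the identifier ENSMUSG00000086503, while every Treat and DN library and control library 4 held 12 to 41. The model and this division of the controls therefore cannot be told apart except through control library 4, whose values are given beside the results. No sex is stated for any animal. A difference in sex along this division was not tested. In every comparison with Ctrl such a difference cannot be told apart from the model except through control library 4. On the first principal component of all genes (40.5% of the variance), control library 4 (59.8) lay nearest the other controls (65.7 to 83.6). The Treat and DN libraries stood at -59.4 to -16.6 there. On the second principal component (10.6% of the variance), treated library 1 (78.8) and control library 4 (54.2) lay apart from the other 16 libraries (-26.8 to 25.2). Control library 5 held 5999.8 CPM (counts scaled to library size) of ENSMUSG00000029368, against 2.08 to 70.4 in the other 17 libraries. No pair of libraries of a group agreed within sampling noise. All 55335 identifiers are mouse identifiers although the labels name the rat, and the species of the animals was not settled. No names of genes other than the 10 markers were used here. Lists of other injury genes, tubule segments and infiltrating cells were therefore not analysed, and the tissue label was not checked against other markers.

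Most of the markers were higher in the model than in controls, and none was called lower with TSK than in DN. Between DN and Ctrl, 8 of the 10 markers were called higher and 0 lower, where called means an adjusted p under 0.05 in edgeR's quasi-likelihood test with Benjamini-Hochberg adjustment over all 19233 genes tested. Of all genes tested, 16.9% were called higher in this comparison, 15.3% lower and 32.2% in either direction. The median log2 fold change of the 10 markers was 1.16, against 0.0079 over all genes tested. For 6 markers the DN and Ctrl libraries did not overlap, all 6 higher in DN, and this held for 8.37% of all genes. Between Treat and DN, 1 of the 10 markers, Clu, was called higher and 0 lower, against 0.536% of all genes called higher, 0.858% lower and 1.39% in either direction. The Treat and DN libraries of Clu did not overlap, which held for 0.77% of all genes in the same direction. The markers' median log2 fold change was 0.47 in that comparison, and -0.0051 over all genes. Between Treat and Ctrl, 8 were called higher and 0 lower, with 23% of all genes called higher, 21.9% lower and 44.9% in either direction, and the Treat and Ctrl libraries did not overlap for 8 markers (11.5% of all genes, higher in Treat). Each pair of these comparisons shares 1 group of libraries, so that the 3 are not independent.

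All 10 markers passed the filter on low counts. Havcr1 and Sox9 would not have passed on the Ctrl libraries alone, and both had to be higher elsewhere to be tested at all, so the counts of calls are given as a description. Beside the 8 calls between DN and Ctrl stands the division of the controls. In a fit with that division as a term, where control library 4 is the only control left to compare with, 4 markers were called higher in DN than in Ctrl (Havcr1, Vcam1, Sox9 and Spp1), with 2.34% of all genes called higher. In Treat against Ctrl that fit called 7 markers higher, with 3.9% of all genes. A single library then stands for the controls and is assumed to vary like the libraries of the other groups. All 6 DN libraries were above control library 4 for Havcr1, Vcam1, Cd44, Sox9, Lcn2, Spp1 and Clu, 5 of 6 for Krt8, 3 of 6 for Vim and 0 of 6 for Krt18. Without control library 4 and treated library 1 all 10 were called higher in DN, with 18% of all genes called higher. Treated library 1 is in neither group of this comparison and enters it only through the fit shared by all libraries. Without control library 4 alone, Krt18 was called and Vim was not (log2 fold change of Vim 0.44, adjusted p = 0.21). Control library 4 and treated library 1 were the highest of their groups for Krt18 and Vim, the markers not called in the main fit. Without control library 4 the model and the division cannot be told apart at all.

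**Figure D1:**
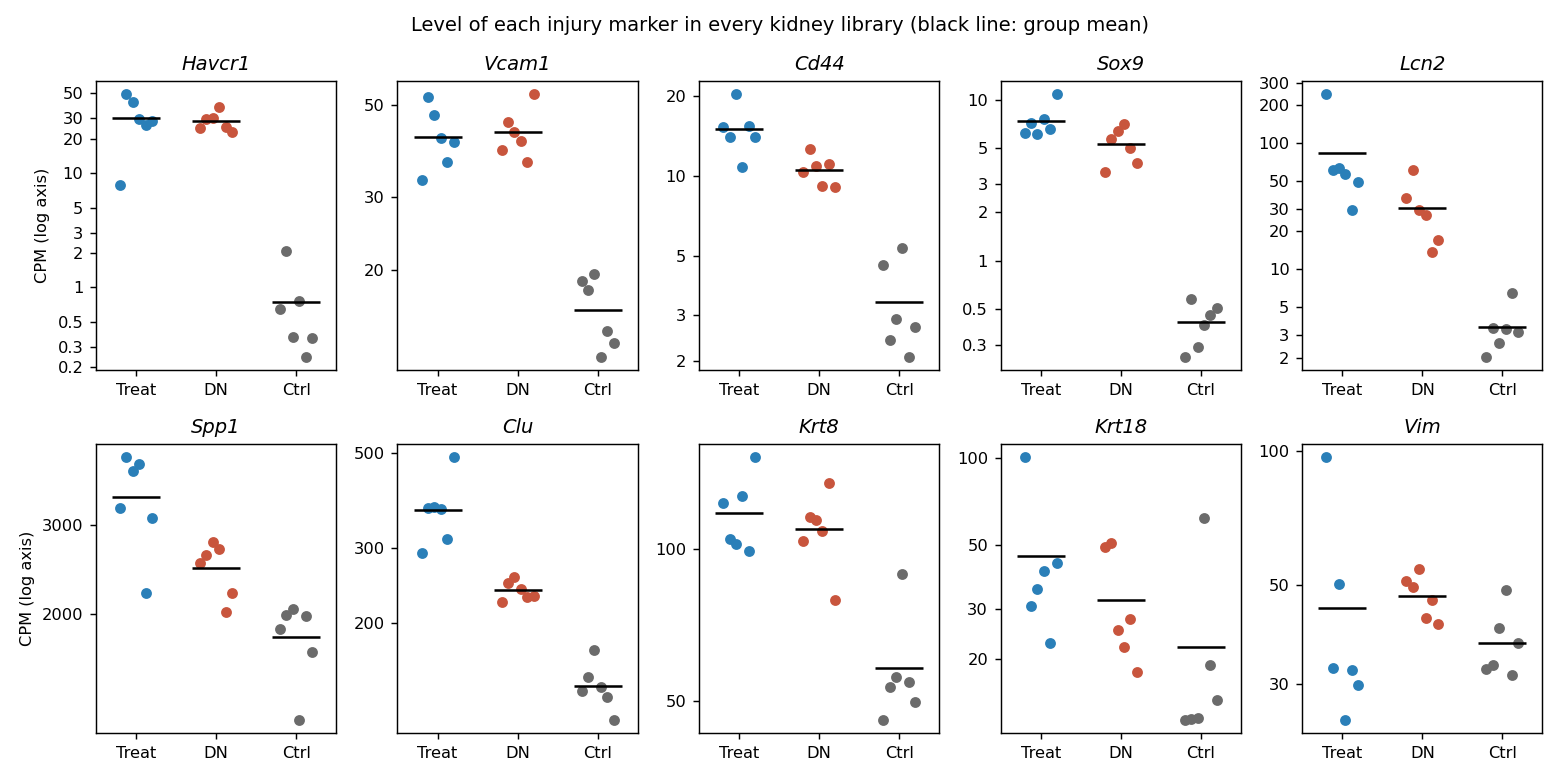
Level of each marker in CPM (log axis) in the 6 Treat, 6 DN and 6 Ctrl libraries, 1 point per library in order of replicate number, with the group mean as a black line. Havcr1, Sox9 and Lcn2 show the widest distance between DN and Ctrl, and Krt18 and Vim overlap between all groups.

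Havcr1 (ENSMUSG00000040405) encodes KIM-1, a surface receptor by which injured proximal tubule cells take up dead cells, and its shed part is measured in urine. In CPM scaled with TMM factors, Havcr1 stood at 7.91 at the lowest, 29.2 at the median and 48.9 at the highest in Treat. In DN the lowest, median and highest were 22.8, 27.4 and 37.6 CPM, and in Ctrl 0.246, 0.508 and 2.08 CPM. Treat and DN overlapped, the lowest DN library was 10.97 times the highest control, and the controls rested on only 7 to 65 counts each. The 7 counts of control library 5 have an exact Poisson 95% interval of 2.81 to 14.4 counts, which covers counting error only. Havcr1 was 37.5-fold higher in DN than in Ctrl (log2 fold change 5.23, standard error, SE, 0.46, adjusted p = 2.6e-07), and only 0.484% of the genes tested had a larger log2 fold change. Control library 4 stood at 0.766 CPM, among the other controls, and with the division of the controls as a term the log2 fold change was 5.20 (adjusted p = 0.0101). Between Treat and DN no change was called (log2 fold change 0.10, 95% interval -0.59 to 0.80, adjusted p = 0.92). Havcr1 was 40.3-fold above Ctrl in Treat (5.33 on the log2 scale, SE 0.46, adjusted p = 1.2e-07). The lowest treated library by far was library 1, since the other 5 ranged from 26.4 to 48.9 CPM.

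Vcam1 (ENSMUSG00000027962) encodes an adhesion molecule for leukocytes that carry the integrin VLA-4. It is known from cytokine-activated endothelium and, in the kidney, from proximal tubule cells that have failed to recover. From lowest through median to highest, Vcam1 stood at 32.9, 41.2 and 52.1 CPM in Treat, 36.5, 42.0 and 52.9 CPM in DN, and 12.4, 16.2 and 19.6 CPM in Ctrl. Treat and DN covered nearly the same range, and every library of both lay above every control. Vcam1 was 2.67-fold higher in DN than in Ctrl (log2 fold change 1.41, SE 0.13, adjusted p = 6.1e-07) and 2.60-fold higher in Treat than in Ctrl (log2 fold change 1.38, SE 0.13, adjusted p = 4.8e-07). The difference between Treat and DN was -0.039 on the log2 scale, with a 95% interval of -0.29 to 0.22 (adjusted p = 0.917). With control library 4 as the reference (12.4 CPM, the lowest control), the log2 fold change between DN and Ctrl was 1.79 (adjusted p = 0.0013).

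Stretches of rat DNA before the Vcam1, Krt18 and Vim genes are shown, since these marker windows hold letters of an inflammatory motif and lie wholly before the annotated gene. The RefSeq promoter table used here (build GRCr8) matched 8 of the 10 markers, all but Sox9 and Clu, and was read over the 250 bases before the listed start. The windows of Havcr1, Spp1 and Cd44 lie wholly inside the annotated gene span, and that of Lcn2 does over 71 of its 250 bases. They belong to the labelled species, while the reads were counted against mouse identifiers. Capitals mark matches on either strand to TATAAA or to the consensus of NF-kB, a family of inflammatory transcription factors. The windows lie at chr2:206742784-206743033 (minus strand), chr7:135035918-135036167 (plus strand) and chr17:81577011-81577260 (plus strand), each written 5′ to 3′ along its gene.
Vcam1: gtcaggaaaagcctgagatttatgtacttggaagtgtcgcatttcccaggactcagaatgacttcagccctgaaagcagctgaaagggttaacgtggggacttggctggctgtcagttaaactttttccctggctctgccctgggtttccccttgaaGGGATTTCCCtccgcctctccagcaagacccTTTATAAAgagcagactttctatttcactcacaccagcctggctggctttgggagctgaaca
Krt18: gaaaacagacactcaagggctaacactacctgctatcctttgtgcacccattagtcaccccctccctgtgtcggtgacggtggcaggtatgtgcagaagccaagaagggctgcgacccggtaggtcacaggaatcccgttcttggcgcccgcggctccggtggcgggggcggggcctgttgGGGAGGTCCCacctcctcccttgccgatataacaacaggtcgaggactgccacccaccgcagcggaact
Vim: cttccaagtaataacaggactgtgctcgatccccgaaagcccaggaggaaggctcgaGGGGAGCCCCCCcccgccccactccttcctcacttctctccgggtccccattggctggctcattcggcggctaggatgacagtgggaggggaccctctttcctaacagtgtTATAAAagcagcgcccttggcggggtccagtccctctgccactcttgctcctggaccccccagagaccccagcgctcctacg
The NF-kB consensus was matched in 4 of the 8 marker windows (Lcn2, Vcam1, Krt18 and Vim) and in 6.33% of 33469 rat windows of this length, and TATAAA in 4 of 8 (Spp1, Vcam1, Krt8 and Vim) and in 12.9% of all. In the Vcam1 window the NF-kB match covers bases 93 to 84 before the start and reads the same kind of match on both strands. TTNNGCAAT, a C/EBP-type motif, was found among the 8 in the Havcr1 window alone, which lies inside the gene span, and in 2.04% of all windows. TGANTCA (AP-1 type, 6.34% of all windows), TTCNNNGAA (STAT type, 7.67%) and the serum response element core (1.5%) were in none of the 8. Genes that hold the NF-kB match included Vcam1 and Lcn2, which were called between DN and Ctrl, and Krt18 and Vim, which were not. A match describes letters in a window and shows neither binding nor use of a site.

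Cd44 (ENSMUSG00000005087) encodes a receptor for hyaluronan and osteopontin that appears on injured and regrowing tubule cells and is also carried by many leukocytes. The lowest, median and highest Cd44 levels were 10.7, 14.7 and 20.3 CPM in Treat, 9.08, 10.6 and 12.6 CPM in DN, and 2.08, 2.79 and 5.36 CPM in Ctrl. The DN libraries lay above all controls, and 5 of the 6 treated libraries lay above all DN libraries. Cd44 was 3.15-fold higher in DN than in Ctrl (log2 fold change 1.66, SE 0.21, adjusted p = 1.2e-05) and 4.49-fold higher in Treat than in Ctrl (log2 fold change 2.17, SE 0.21, adjusted p = 4.7e-07). Between Treat and DN the log2 fold change was 0.51 (95% interval 0.12 to 0.90), which did not pass adjustment over all genes (exact permutation p = 0.0087, edgeR adjusted p = 0.209). Control library 4 was the highest control at 5.36 CPM, and with the division of the controls as a term the call between DN and Ctrl was lost (log2 fold change 0.97, adjusted p = 0.110).

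Sox9 (ENSMUSG00000000567) encodes a transcription factor that surviving tubule cells switch on while they divide and rebuild the epithelium. Sox9 stood at a lowest, median and highest level of 6.14, 6.83 and 10.8 CPM in Treat, 3.58, 5.36 and 7.03 CPM in DN, and 0.252, 0.429 and 0.577 CPM in Ctrl. These levels rested on 162 to 282 counts in Treat, 101 to 239 in DN and only 7 to 18 in Ctrl. Every DN and treated library lay above every control. Sox9 was 12.6-fold higher in DN than in Ctrl (log2 fold change 3.65, SE 0.23, adjusted p = 2.4e-08), the lowest adjusted p of the 10 markers. Treated libraries were 17.5-fold above Ctrl (a log2 fold change of 4.13, SE 0.24, adjusted p = 1.9e-09). The treated libraries all lay above the DN median, but the groups overlapped and the log2 fold change of 0.48 between Treat and DN (95% interval 0.09 to 0.87) did not pass adjustment (exact permutation p = 0.028, edgeR adjusted p = 0.235). Control library 4 stood at 0.401 CPM, within the range of the other controls. Against this 1 library, with 11 counts of Sox9, the log2 fold change between DN and Ctrl was 3.71 (adjusted p = 0.0010, with the spread taken from the other libraries).

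Lcn2 (ENSMUSG00000026822) encodes lipocalin 2 or NGAL, an iron-siderophore carrier released by the stressed distal nephron and by neutrophils, and Spp1 (ENSMUSG00000029304) encodes osteopontin, a secreted matrix and crystal-binding protein made by tubules. Clu (ENSMUSG00000022037) encodes clusterin, a secreted chaperone that rises in many kinds of kidney damage. These 3 secreted markers were called higher in DN than in Ctrl, by very different factors.

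Lcn2 stood at 29.5 CPM at the lowest, 59.0 at the median and 243 at the highest in Treat. In DN these levels were 13.8, 28.1 and 61.1 CPM, and in Ctrl 2.02, 3.26 and 6.47 CPM. Every DN and treated library exceeded every control, while Treat and DN overlapped. Lcn2 was 8.73-fold higher in DN than in Ctrl (log2 fold change 3.13, SE 0.49, adjusted p = 0.00013). Treated libraries were 23.8-fold above Ctrl (a log2 fold change of 4.57, SE 0.52, adjusted p = 2.6e-06). Between Treat and DN the log2 fold change of 1.45 (95% interval 0.57 to 2.32) did not pass adjustment (exact permutation p = 0.030, edgeR adjusted p = 0.111), with all 6 treated libraries above the DN median. Treated library 1 alone reached 243 CPM, the other 5 averaged 51.9 ± 13.6 CPM (SD, n = 5), and without library 1 the log2 fold change between Treat and DN was 0.76 (adjusted p = 0.267). With control library 4 (3.36 CPM) as the reference, the log2 fold change between DN and Ctrl was 3.19 but its adjusted p was 0.105.

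Spp1 was abundant in all groups and took 0.228% to 0.420% of the counts of a library in Treat, 0.179% to 0.272% in DN and 0.129% to 0.196% in Ctrl. Levels at the lowest, median and highest library were 2203, 3540 and 4081 CPM in Treat, 2025, 2565 and 2768 CPM in DN, and 1239, 1928 and 2044 CPM in Ctrl. The lowest DN library lay just below the highest control, and 5 of the 6 treated libraries lay above all DN libraries. Spp1 was 1.37-fold higher in DN than in Ctrl (log2 fold change 0.45 with SE 0.15, adjusted p = 0.024). Control library 4 was the lowest control, and without it the call was lost (log2 fold change 0.37, adjusted p = 0.0506), as it was without DN library 3 (adjusted p = 0.0549) or control library 6 (adjusted p = 0.0508). With the division of the controls as a term the log2 fold change was 0.99 between DN and Ctrl (adjusted p = 0.035) and 1.46 between Treat and Ctrl (adjusted p = 0.0036). Treated libraries were 1.89-fold above Ctrl (a log2 fold change of 0.92, SE 0.15, adjusted p = 9.4e-05). Between Treat and DN the log2 fold change was 0.46 (95% interval 0.18 to 0.75, adjusted p = 0.121). Treated library 5, the only treated library within the range of DN, stood at 2203 CPM, and without it the difference was called (log2 fold change 0.56, adjusted p = 0.044).

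Clu was the 1 marker called between Treat and DN, and it was higher with TSK. Its lowest, median and highest levels were 291, 371 and 490 CPM in Treat, 224, 235 and 256 CPM in DN, and 118, 140 and 172 CPM in Ctrl. The 3 groups did not overlap, with every treated library above every DN library and every DN library above every control. Clu was 1.55-fold higher in Treat than in DN (a log2 fold change of 0.63 with SE 0.11, adjusted p = 0.0079, higher in 6 of 6 libraries). By an exact permutation test of these 6 against 6 libraries the two-sided p was 0.0022, the smallest this design allows, and it was 0.12 after adjustment over all genes, the smallest value of this test, shared by all genes whose Treat and DN libraries did not overlap. Clu was 1.67-fold higher in DN than in Ctrl (log2 fold change 0.74, SE 0.11, adjusted p = 6.1e-05) and 2.59-fold higher in Treat than in Ctrl (a log2 fold change of 1.37 with SE 0.11, adjusted p = 6.0e-08). Control library 4 stood at 141 CPM, inside the range of the others, and with the division of the controls as a term the log2 fold change between DN and Ctrl was 0.75 (adjusted p = 0.056). Treated library 1 was the lowest of its group for Clu, and without it the log2 fold change between Treat and DN was 0.69 (adjusted p = 0.0025). Its coefficient of variation was 18.7% in Treat, 5.07% in DN and 12.6% in Ctrl.

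**Figure D2:**
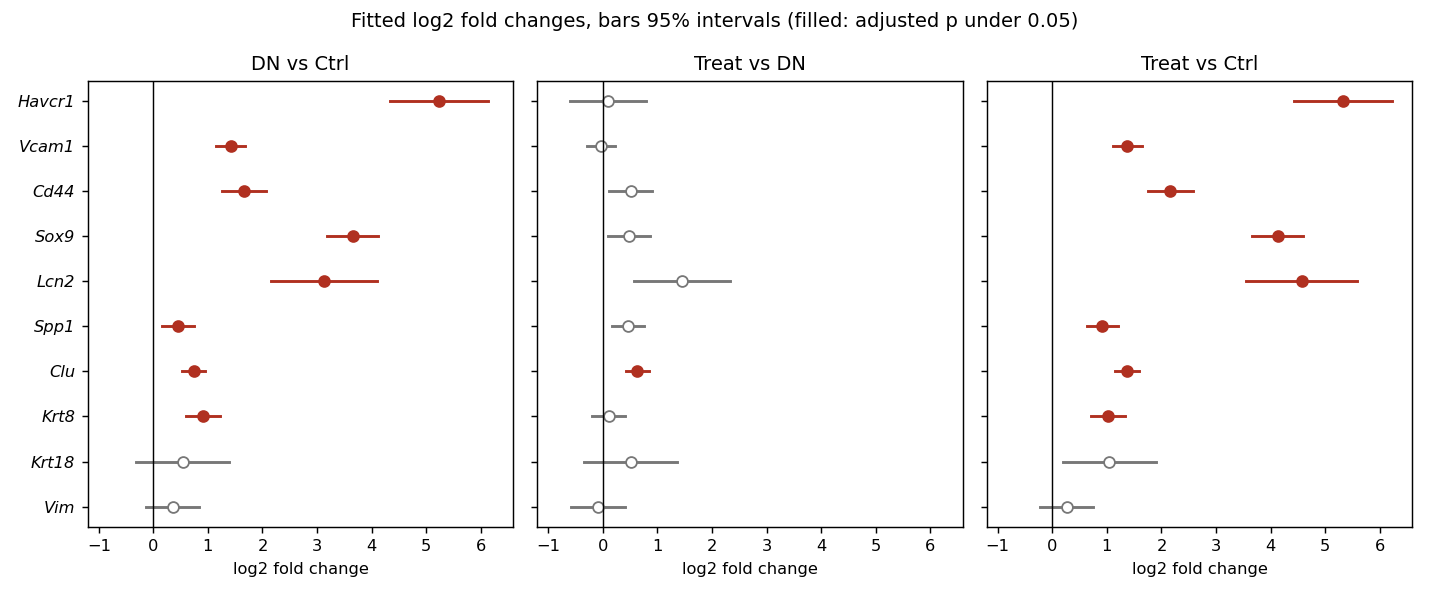
Fitted log2 fold changes (x axis) of the 10 markers in DN vs Ctrl, Treat vs DN and Treat vs Ctrl, with bars for 95% intervals and filled points for an adjusted p under 0.05. In the middle panel Clu is the only filled point at 0.63, and Lcn2 lies at 1.45 with the widest bar.

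Krt8 (ENSMUSG00000049382) and Krt18 (ENSMUSG00000023043) encode the paired keratins of simple epithelium, which rise in stressed tubules, and Vim (ENSMUSG00000026728) encodes vimentin, the intermediate filament of mesenchymal cells that dedifferentiated tubule cells also make. The lowest, median and highest levels of Krt8 were 98.9, 114 and 152 CPM in Treat, 79.0, 111 and 135 CPM in DN, and 45.8, 53.9 and 89.0 CPM in Ctrl. Krt8 was 1.88-fold higher in DN than in Ctrl (log2 fold change 0.91, SE 0.16, adjusted p = 0.00026) and 2.03-fold higher in Treat than in Ctrl (log2 fold change 1.02, SE 0.16, adjusted p = 5.6e-05). Between Treat and DN the log2 fold change was 0.11 (95% interval -0.19 to 0.41, adjusted p = 0.774). Control library 4 was the highest control at 89.0 CPM, against 51.8 ± 4.05 CPM in the other 5 (SD, n = 5), and lay above the lowest DN library. All treated libraries lay above all controls. With the division of the controls as a term the log2 fold change was 0.29 between DN and Ctrl (adjusted p = 0.478) and 0.40 between Treat and Ctrl (adjusted p = 0.269), so neither call held.

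Krt18, the partner of Krt8, was not called in any comparison of the main fit. Its lowest, median and highest levels were 22.8, 37.7 and 101 CPM in Treat, 17.97, 26.4 and 50.8 CPM in DN, and 12.3, 13.4 and 62.1 CPM in Ctrl. Control library 4 (62.1 CPM) lay above every DN library, while the other 5 controls stood at 12.3 to 19.1 CPM. The log2 fold change was 0.54 between DN and Ctrl (SE 0.43, adjusted p = 0.361), 0.51 between Treat and DN (SE 0.43, adjusted p = 0.593) and 1.05 between Treat and Ctrl (SE 0.44, adjusted p = 0.059). By limma voom with quality weights Krt18 was called in DN against Ctrl (log2 fold change 1.08, adjusted p = 0.011). Voom also called it in Treat against Ctrl (log2 fold change 1.17, adjusted p = 0.0044). The main result was kept in 25 of 30 alternatives for DN against Ctrl and in 23 of 30 for Treat against Ctrl. Without control library 4 it was called in DN against Ctrl (log2 fold change 1.18, adjusted p = 0.015) and in Treat against Ctrl (log2 fold change 1.69, adjusted p = 0.00098). With that library as the only reference it was -0.95 between DN and Ctrl (adjusted p = 0.326) and -0.44 between Treat and Ctrl (adjusted p = 0.649).

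Vim was not called in any comparison of the main fit either. Its lowest, median and highest levels were 24.9, 32.3 and 97.0 CPM in Treat, 40.9, 47.9 and 54.2 CPM in DN, and 31.4, 34.98 and 48.6 CPM in Ctrl. All 3 groups overlapped, and treated library 1 was far above the other treated libraries, 4 of which lay below every DN library. The log2 fold change was 0.35 between DN and Ctrl (95% interval -0.14 to 0.84, adjusted p = 0.297), -0.089 between Treat and DN (95% interval -0.58 to 0.40, adjusted p = 0.897) and 0.26 between Treat and Ctrl (95% interval -0.23 to 0.75, adjusted p = 0.415). Without treated library 1 the log2 fold change between Treat and DN was -0.48 (adjusted p = 0.113). Control library 4 was the highest control at 48.6 CPM, and with the division of the controls as a term the sign turned, to -0.041 between DN and Ctrl (adjusted p = 0.972) and -0.13 between Treat and Ctrl (adjusted p = 0.883). In a fit of the 12 DN and Ctrl libraries alone Vim was called higher in DN (log2 fold change 0.38, adjusted p = 0.021). That fit keeps control library 4 and leaves out the treated libraries. The exact permutation test also called Vim higher in DN than in Ctrl (p = 0.015, adjusted p = 0.047). Of 30 alternatives, 26 kept the main result of Vim for DN against Ctrl.

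**Figure D3:**
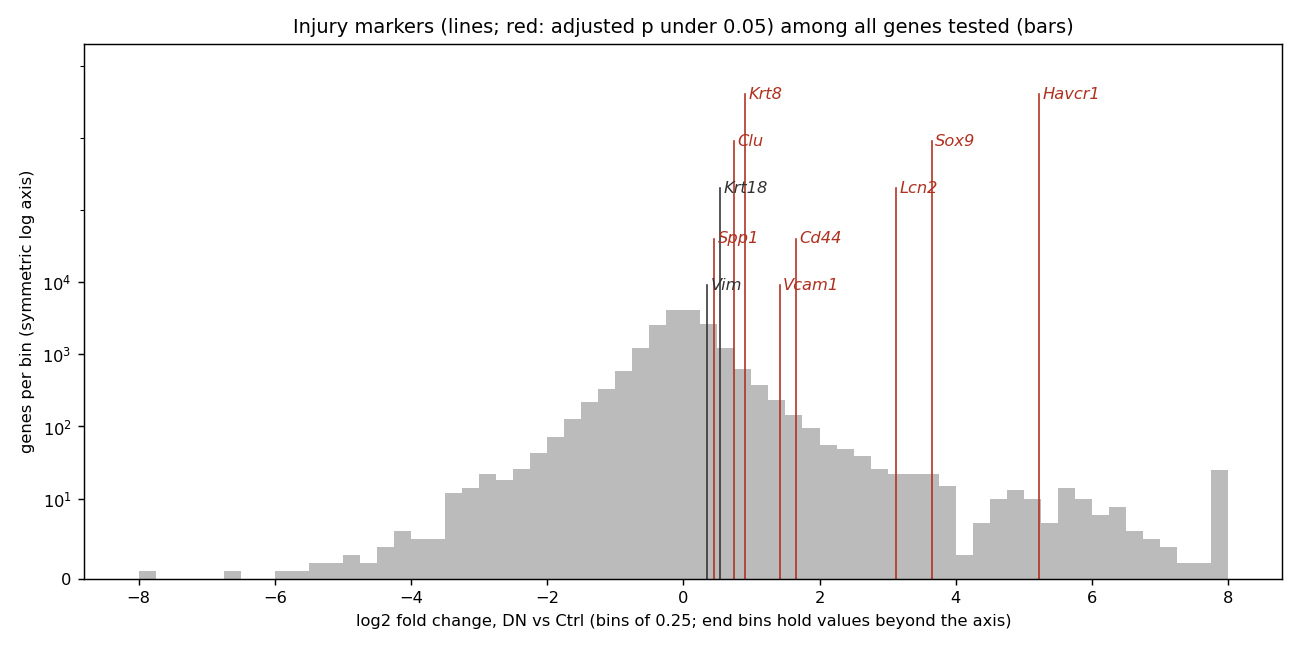
Distribution of the log2 fold change between DN and Ctrl (x axis) over all 19233 genes tested (bars, symmetric log axis), with a line for each marker, red where the adjusted p was under 0.05. All 10 lines lie right of 0, from 0.35 for Vim to 5.23 for Havcr1; line heights only separate the names.

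The markers did not move as a block from library to library. In treated library 1, Lcn2 (243 CPM), Krt18 (101 CPM) and Vim (97.0 CPM) were the highest of the group, while Havcr1 (7.91 CPM), Vcam1 (32.9 CPM) and Clu (291 CPM) were the lowest. The ratio of Lcn2 to Havcr1 counts in that library was 30.7, against 1.12 to 1.93 in the other treated libraries and 0.550 to 2.05 in DN. In the controls this ratio ranged from 1.66 to 26.3, with Havcr1 at a few counts. In control library 4, Cd44, Krt8, Krt18 and Vim were the highest of the group, while Spp1 and Vcam1 were the lowest.

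The ratio of Krt18 to Krt8 counts, both keratins of the same filament, was 0.823 in treated library 1 and 0.697 in control library 4. It was 0.231 to 0.343 in the other treated libraries and 0.224 to 0.351 in the other controls. In DN, libraries 1 and 2 stood at 0.475 and 0.440 and the other 4 at 0.203 to 0.227. Treated library 1 and control library 4 are also the libraries that lay apart on the second principal component, and the part of that difference in the marker levels was not tested.

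**Figure D4:**
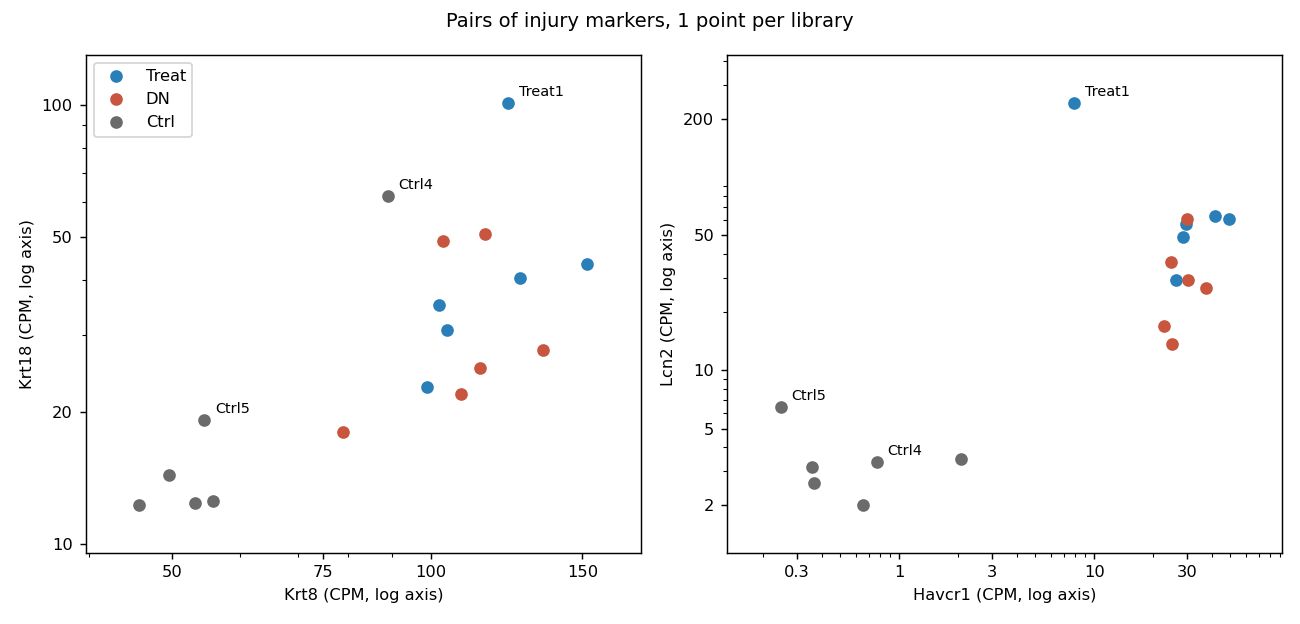
Krt18 against Krt8 (left) and Lcn2 against Havcr1 (right) in CPM on log axes, 1 point per Treat, DN or Ctrl library. Treated library 1 and control library 4 lie above the other libraries of their groups for Krt18, and treated library 1 combines the highest Lcn2 with the lowest Havcr1 of its group.

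For each of the 8 markers called in any comparison, the profile over the 18 libraries was also compared with those of all other markers. The distance was the mean absolute difference of log2 CPM after each gene was centred at its own mean. The nearest other marker was Spp1 for Clu and Clu for Spp1 (0.23), Clu for Krt8 (0.28), Clu for Vcam1 (0.31) and Vcam1 for Cd44 (0.42). Sox9 was the nearest to both Lcn2 (0.62) and Havcr1 (0.92), and Lcn2 was the nearest to Sox9. Other genes were counted by the same distance. Of 11803 other genes with a mean of at least 5 CPM, 2 lay closer to Lcn2 than Sox9 did, 11 lay closer to Havcr1 than Sox9 did, and 21 lay closer to Sox9 than Lcn2 did. For Spp1 and Clu, 66 and 38 genes lay closer than the other of the pair, and 575 lay closer to Krt8 than Clu did. For Vcam1, 155 genes lay closer than Clu did, and for Cd44, 71 lay closer than Vcam1 did. This distance is a description and grows with the size of a gene's own change. A strongly changed marker therefore has few close genes by construction, and genes with a lower mean were left out of these counts.

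**Figure D5:**
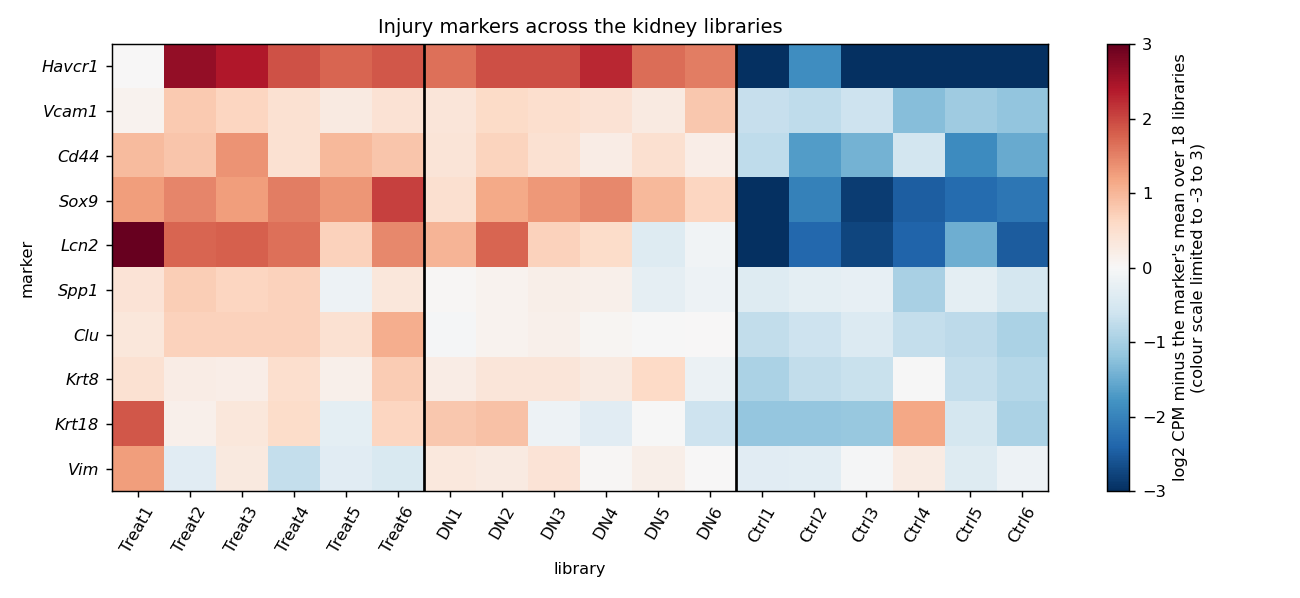
Log2 CPM of each marker (rows) in each library (columns, Treat, DN and Ctrl from left to right), minus the marker's mean over 18 libraries, with colours limited to -3 to 3. The rows of Havcr1, Sox9 and Lcn2 are red in most Treat and DN libraries and deep blue in Ctrl, and treated library 1 and control library 4 stand out in the Krt18 row.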

How the data were processed

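The authors deposited raw counts (whole numbers) for every gene and library in 1 table. Columns were assigned by the library names in the labels. Per the labels' protocols, RNA came from an RNeasy kit (Qiagen) and libraries from a SMARTER mRNA kit. Per the submitters' processing notes the mouse builds GRCm38 and mm10 were used. The sources used here name no aligner, counter, annotation or strand setting, so reads shared with related or overlapping genes could not be traced. The species of the animals was not settled here. If they were rats, as labelled, reads counted on mouse genes may be lost to a different degree for each gene. Levels are compared within a gene only.

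Marker symbols came with the chosen identifiers. The rat gene table used here matched 0 of 55335 identifiers, so the 14 lists fixed with the design (195 symbols) were not analysed. Members and lists were chosen with earlier results of these data known. The rule for named genes was to describe all 10 members, called genes of any list whose symbols could be matched, and the nearest profiles; identifiers without a name are only counted.

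The counts were tested with edgeR 4.0.16 under R 4.3.3 (filterByExpr, 19233 genes; TMM factors; 1 coefficient per group over 18 libraries; glmQLFit and glmQLFTest). The pipeline was tested on simulated data. Libraries carry separate labels. The edgeR p-values set a difference between 2 groups against the spread between libraries, which was estimated over all 18. Standard errors came from the F statistics, and 95% intervals use the normal quantile. Log2 CPM used a prior count of 2. Replicates differed beyond sampling noise (chi-square per degree of freedom at least 12.9). Alternatives were DESeq2 1.42.0, limma 3.58.1 (voom with quality weights), RLE factors, library totals, other filters, fits of 12 libraries, a replicate block, libraries left out, the division of the controls (over 1000 counts of ENSMUSG00000086503) as a covariate, and exact permutation over 924 splits.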

Additional observations from a re-analysis of the deposited data

Results flagged for a closer look

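Of 30 groups of 6 libraries (10 markers in 3 groups), 8 held a library set apart in CPM. Its gap to its nearest neighbour, as a share of the group's range, was above the critical value for 6 samples. That value flags about 1 in 20 groups of independent, normally spread values. CPM was used without a log, which stretches gaps at the high end, and the same libraries recur across markers. The 8 are therefore a description and are not set against that rate. All 8 were at the high end. Treated library 1 was set apart for Lcn2 (gap 0.843 of the range; 243 CPM, next 62.9), Krt18 (0.738; 101 CPM, next 43.4) and Vim (0.647; 97.0 CPM, next 50.3). Control library 4 was set apart for Krt18 (0.863; 62.1 CPM, next 19.1) and Krt8 (0.770; 89.0 CPM, next 55.8). The other 3 were Havcr1 in control library 2 (0.717; 2.08 CPM, next 0.766), Lcn2 in control library 5 (0.676; 6.47 CPM, next 3.46) and Sox9 in treated library 6 (0.693; 10.8 CPM, next 7.57). Control library 2 held 65 counts of Havcr1 (exact Poisson 95% interval 50.2 to 82.8), and without it the log2 fold change of Havcr1 between DN and Ctrl was 5.89 (adjusted p = 1.6e-07). Without control library 5 that of Lcn2 was 3.39 (adjusted p = 0.00017).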

How the results depend on the processing

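Each value was recomputed under 30 alternatives. Of these, the control division was defined from counts of these same data, and the pairs of libraries left out hold libraries described above as standing apart. The calls of Havcr1, Vcam1 and Sox9 in DN versus Ctrl, and of all called markers but Krt8 in Treat versus Ctrl, held in all 30, where the fit with the control division rests on 1 control library. With the control division as a covariate, 4 markers and 986 genes were called in DN versus Ctrl (8 and 6202 without it) and 1862 genes in Treat versus Ctrl (8629). Log2 fold changes that turned sign in that fit were Krt18 (-0.95) and Vim (-0.041) in DN versus Ctrl, and Krt18 (-0.44) and Vim (-0.13) in Treat versus Ctrl. Vim in Treat versus Ctrl was also -0.0087 with voom and -0.025 without control library 4 and treated library 1. In Treat versus DN, Clu kept its call in all but the exact test, whose smallest adjusted p over all genes was 0.12. In this comparison 2 markers (Spp1 added) were called by DESeq2, with library totals and without treated library 5. The exact permutation test called 0, and by it 2657 genes and 5 markers had an unadjusted p under 0.05. Genes called were 786 by DESeq2, 775 with library totals, 119 with no filter, 116 with only the 12 libraries, 737 by voom, 593 without control library 4 and treated library 1, and 0 by the exact test, against 268. Values that turned sign in Treat versus DN were Vcam1 (0.084 with library totals, 0.014 with voom, 0.039 without those 2 libraries), Vim (0.074 with library totals) and Havcr1 (-0.069 as a difference of mean log2 CPM); none was called and the cause was not tested.

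Leaving out each library in turn gave 7 to 8 markers in DN versus Ctrl (5103 to 6936 genes), 1 to 2 in Treat versus DN (97 to 446 genes) and 8 to 9 in Treat versus Ctrl (7909 to 8929 genes). The genes in Treat versus DN numbered 164 without control library 6, 152, 119, 97 and 125 without DN libraries 1, 2, 4 and 6, and 446, 119 and 160 without treated libraries 1, 3 and 6. Log2 fold changes in Treat versus DN ranged from -0.083 to 0.30 for Havcr1 (0.32 without control library 4 and treated library 1), from -0.11 to 0.030 for Vcam1 and from -0.48 to 0.032 for Vim, and that of Vim in Treat versus Ctrl from -0.13 to 0.38. With library totals the median of all genes shifted by 0.13 in Treat versus DN, where 84.4% of calls were then higher (38.4% with TMM), and by 0.10 in Treat versus Ctrl (64.5% against 51.2%).

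With the replicate block, 117 genes were called in Treat versus DN and Havcr1 there stood at -0.033. No label says whether the numbers pair the samples, and the correlations below cannot settle it. Same-numbered libraries had correlations of -0.19 to 0.071 in DN and Ctrl and -0.12 to 0.19 in Treat and DN, and 2 of 6 Treat libraries were closest to the DN library of their number, as were 0 of 6 DN libraries to the control of theirs. Of the 6 pairs of Treat and DN, 2 had a correlation over 0.1. The block changed no marker's call.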
